A study of Mus musculus with 16 samples.

Results

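Clusterin (Clu, also called apolipoprotein J) was followed on 16 arrays of mouse ileal epithelial cells, 5 labelled carcinoma, 5 labelled adenoma and 6 labelled WT. It is 1 of 8251 genes that the deposited table measures with at least 1 probe set naming no other gene, and it was chosen because earlier results on these data had shown a large difference between tumours and WT. Its probe sets were all those whose only gene symbol in the platform annotation is Clu, which gave 2 of the 12488 probe sets, 161294_f_at and 95286_at. The suffix _f_at is Affymetrix's mark for a probe set whose probes match several similar sequences, so 161294_f_at may read more than 1 transcript. The gene is protein coding and lies on mouse chromosome 14. Positions are not printed, because the deposited table names no genome build.

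Epithelial cells were cut from the ileum, the last stretch of the small intestine, by laser capture microdissection, and their RNA was amplified in 2 rounds before hybridisation to MG_U74Av2 arrays. Carcinoma (an invasive tumour), adenoma (a benign tumour) and WT are the groups as the sample titles give them, and every title carries the same prefix, whose meaning is not stated. Nothing in the labels states the mice's genotype, strain, age or treatment, how many mice there were, or by what marks tissue was picked for cutting. Nor is an array linked to a mouse, so the spreads and p-values below are between captured samples, and a mouse that gave several captures would make the p-values too small.

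Clusterin is a secreted glycoprotein that binds misfolded proteins outside the cell, keeps the membrane attack complex of complement from inserting into membranes, and travels in plasma with high-density lipoprotein. Cells take it up through receptors of the low-density lipoprotein receptor family, and a form that stays inside the cell binds the pro-apoptotic protein Bax. In the mouse intestine it is little expressed in resting epithelium, marks the cells that rebuild crypts after injury, and is known to be raised in tumours of mice that carry a mutant Apc allele.

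The captured material carried epithelial transcripts in every group. Epcam, an adhesion molecule, had a signal of 6296 to 11309 in carcinoma, 6626 to 9694 in adenoma and 6486 to 12095 in WT. All 15 epithelial markers with a probe set were bright enough to test. The WT arrays alone could pass a gene by that filter, so passing it does not show signal in the tumours. Slc10a2, the ileal bile acid transporter, was near background, with medians of 24.3 in carcinoma, 23.2 in adenoma and 85.9 in WT. The median signal per array was 126.8 to 184.7 in carcinoma, 144.8 to 195.3 in adenoma and 168.1 to 234.2 in WT. A pair of control measures also differed with the groups. Spike-in transcripts added at hybridisation had a mean log2 signal of 11.56 to 12.70 in carcinoma, 11.38 to 13.47 in adenoma and 12.44 to 14.73 in WT, and for Gapdh the 3' probe set over the 5' probe set, an index of RNA integrity and amplification, had a log2 ratio of 4.95 to 6.45 in carcinoma, 5.52 to 6.12 in adenoma and 4.09 to 5.02 in WT. The same ratio for beta-actin did not follow the Gapdh order, at 5.54 to 6.56 in carcinoma, 5.46 to 6.19 in adenoma and 6.05 to 6.49 in WT.

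Clusterin was high on every tumour array and lower on every WT array. On probe set 161294_f_at the signal, a linear intensity, was 7214, 7240, 5013, 18912 and 13972 on carcinoma arrays 1 to 5. On adenoma arrays 1 to 5 it was 11256, 12909, 10439, 11120 and 10154. On the 6 WT arrays the lowest signal was 24.8, the median 66.9 and the highest 234.0. WT 1 (234.0) and WT 3 (206.5) lay near the median signal of their arrays, 208.8 and 187.5. The groups did not overlap between tumours and WT, since the lowest tumour array, carcinoma 3, stood 21.4-fold above the highest WT array, WT 1.

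Probe set 95286_at gave the same order of groups with a smaller distance. Its signal was 1438, 1128, 720.7, 5595 and 4510 on carcinoma arrays 1 to 5. On adenoma arrays 1 to 5 it was 2300, 1593, 1867, 2453 and 2984. The WT arrays lay between 88.3 and 181.9, with a median of 134.2. Here the lowest tumour array, again carcinoma 3, was 3.96-fold above the highest WT array, WT 4.

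**Figure D1:**
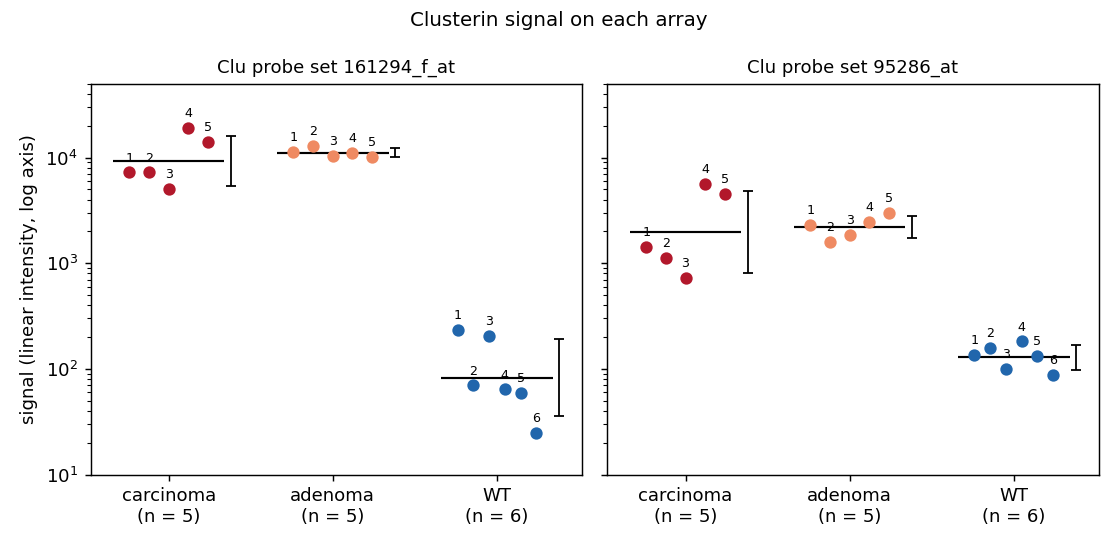
Signal of both Clu probe sets (linear intensity on a log axis) on each array, by group, with the replicate number of the title beside each point. Bars mark the geometric mean and whiskers ± 1 SD on the log2 scale. All 10 tumour arrays lie above all 6 WT arrays on both probe sets, and the carcinoma arrays spread more widely than the adenoma arrays.

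On the log2 scale, with values below the floor of 46.9 set to it, Clu on 161294_f_at averaged 13.18 ± 0.78 in carcinoma (SD, n = 5), 13.44 ± 0.13 in adenoma (SD, n = 5) and 6.52 ± 0.99 in WT (SD, n = 6). The fitted log2 difference was 6.66 ± 0.42 (SE) for carcinoma minus WT and 6.92 ± 0.42 for adenoma minus WT. Because some WT signals were near background, these sizes depend on the floor. Only WT 6 was below it, with no floor the differences were 6.81 for carcinoma and 7.07 for adenoma, and with the floor at the 40th percentile they were 6.04 and 6.30. On 95286_at the means were 10.94 ± 1.29 in carcinoma, 11.09 ± 0.35 in adenoma and 7.01 ± 0.40 in WT. That gave 3.93 ± 0.43 for carcinoma minus WT and 4.09 ± 0.43 for adenoma minus WT. Since Clu was picked for these differences, they are given as a description with no test. Of the 7455 genes tested, 1.92% had all 10 tumour arrays above all 6 WT arrays, 3.13% had all 5 carcinoma arrays above them and 3.06% had all 5 adenoma arrays above them. Since the choice used these arrays, nothing is read from those shares.

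The fitted difference was smaller on 95286_at than on 161294_f_at, and with low WT signals on both, neither gives the size of the change in transcript. The within-array ratio of 161294_f_at to 95286_at was 3.10 to 6.96 in carcinoma, 3.40 to 8.11 in adenoma and 0.28 to 2.07 in WT, with no overlap between tumours and WT. The WT ratios set one low signal over another, so nothing is read from their distance to the tumours. Within WT the 2 probe sets did not rank the arrays alike. WT 1 and WT 3 were the highest on 161294_f_at, at 234.0 and 206.5, while WT 4 and WT 2 were the highest on 95286_at, at 181.9 and 158.9.

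Placed among all probe sets on its own array, which needs no scaling between arrays, 161294_f_at lay at the 97.4th to 99.5th percentile in carcinoma, the 98.7th to 99.0th in adenoma and the 16.6th to 52.9th in WT. The percentile of 95286_at was 79.6 to 97.8 in carcinoma, at least 90.7 in adenoma, with a median of 93.4, and 35.9 to 45.4 in WT. Tumours and WT did not overlap on this measure either.

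The 2 tumour groups were compared next, a contrast that was not the one used to choose Clu, although the arrays of both tumour groups entered that choice. Clu was 0.83-fold in carcinoma relative to adenoma on 161294_f_at (log2 -0.26 ± 0.44, 95% interval 0.44-fold to 1.59-fold), with a limma p of 0.561 and an adjusted p of 1 over the 7455 genes. By a two-sided exact permutation test over the 10 tumour arrays, p was 0.492, where the smallest p that 252 splits allow is 0.0079. On 95286_at the difference was -0.15 ± 0.45 (0.90-fold, 95% interval 0.47-fold to 1.74-fold) with a limma adjusted p of 1 and an exact permutation p of 0.817. In this comparison 0.0268% of the 7455 genes passed, S100g and Gpx5, both lower in carcinoma, and 0.0379% of the 10563 probe sets did.

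The carcinoma arrays spread more widely in Clu than the adenoma arrays. The highest carcinoma array was 3.77 times the lowest on 161294_f_at and 7.76 times on 95286_at, against 1.27 and 1.87 times among the adenoma arrays. On both probe sets no carcinoma array fell within the adenoma range: carcinoma 1, 2 and 3 lay below every adenoma array, and carcinoma 4 and 5 lay above every adenoma array. Of the genes tested, 1.15% had all 5 carcinoma arrays outside the adenoma range on both sides. The SD of Clu on 161294_f_at was 5.83 times larger in carcinoma than in adenoma, the median of this ratio over genes was 0.99, and 0.732% of 7379 genes had a larger one. On 95286_at, with SDs of 1.29 in carcinoma and 0.35 in adenoma, the ratio was smaller and was not set against other genes. This pattern was noticed in the data, is given as a description, and was not tested.

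The 2 probe sets, read from the same libraries, ranked the carcinoma arrays much alike and the adenoma arrays not. With the mean of each group removed, their log2 signals correlated at r = 0.91 over the 10 tumour arrays, with r = 0.99 within carcinoma and -0.72 within adenoma (n = 5 each). Adenoma 2 was the highest on 161294_f_at, at 12909, and the lowest on 95286_at, at 1593.

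**Figure D2:**
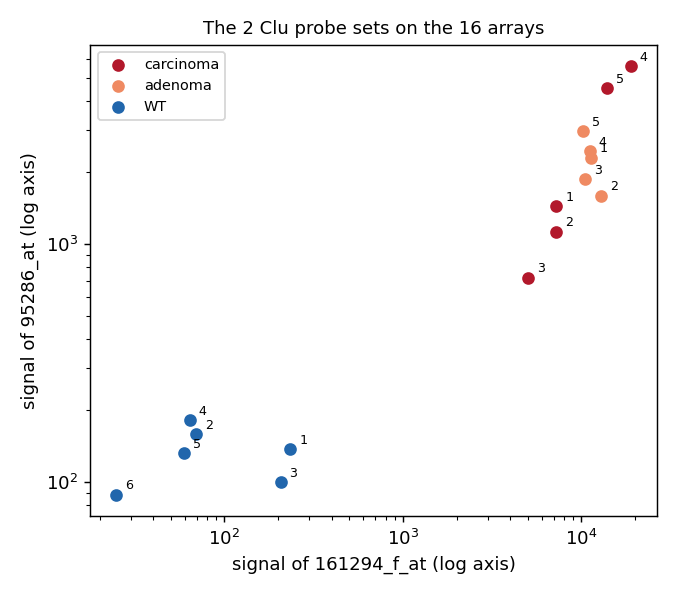
Signal of 95286_at against that of 161294_f_at on the 16 arrays (both axes logarithmic), with replicate numbers. The 5 adenoma arrays form a tight cluster, with carcinoma 1, 2 and 3 below it and carcinoma 4 and 5 above it on both axes.

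The genes whose signal most resembled that of Clu were sought among 7312 named genes by Pearson's r of log2 signal over the 16 arrays. Most of such a likeness reflects the gap between tumours and WT, which chose Clu, so it is a description and carries no p. The 8 highest were Anxa1 (r = 0.99), Ctse (0.97), Cfi (0.97), Anxa8, Lama5, Cidea, Itgav and Ifitm3 (0.95 each). Over all genes the median r was -0.12, and 0.520% of genes reached 0.9. By Spearman's rho, 0 of these 8 were among the 8 highest. For Itgav, the probe sets not used differed on the log2 scale by 0.40 and -0.07 in carcinoma against WT. In adenoma against WT they differed by 0.31 and -0.39, so the likeness of Itgav rests on a single probe set.

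Anxa1, annexin A1, is a phospholipid-binding protein with anti-inflammatory action. Its signal was 13430, 20578, 18104, 34310 and 22620 on carcinoma arrays 1 to 5. On adenoma arrays 1 to 5 it was 19792, 18441, 12599, 26223 and 13402. The WT arrays ran from 397.2 to 658.9. Carcinoma 4 and 5 were the highest of the carcinoma arrays for Anxa1, as for Clu.

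Ctse, the aspartic protease cathepsin E, was at 2348, 2833, 2490, 6468 and 4030 on carcinoma arrays 1 to 5. On adenoma arrays 1 to 5 it was at 4023, 4389, 6818, 3656 and 3675. The highest of the 6 WT arrays was at 129.2. The other 2 probe sets of Ctse differed by -0.05 and 0.64 on the log2 scale in carcinoma against WT and by 0.56 and 0.54 in adenoma against WT, so its likeness to Clu rests on 1 probe set of 3.

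Cfi, complement factor I, which cleaves C3b and C4b, had a signal of 7810 to 15363 in carcinoma, 9546 to 12589 in adenoma and 33.7 to 341.9 in WT. Unlike Clu and Anxa1, it was highest on carcinoma 1 and lowest on carcinoma 4. With group means removed, its r with Clu over the 10 tumour arrays was -0.13, against 0.64 for Anxa1 and 0.78 for Ctse, so the 3 genes shared the gap from WT more than the pattern within tumours.

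**Figure D3:**
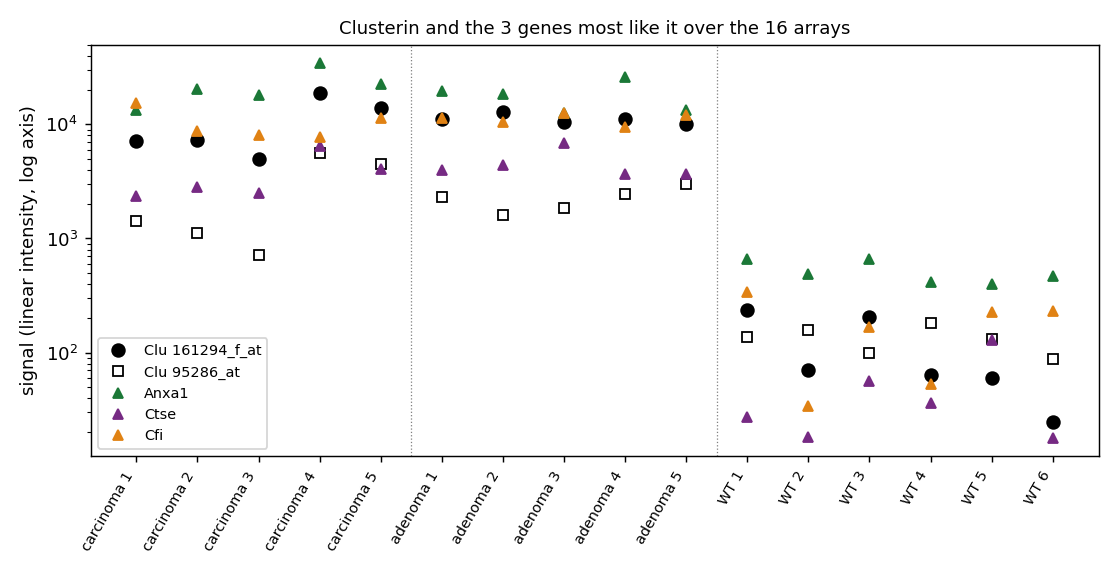
Signal of both Clu probe sets and of Anxa1, Ctse and Cfi on each array (linear intensity on a log axis), with carcinoma arrays at left, then adenoma, then WT. All 5 series lie higher on each of the 10 tumour arrays than on any of the 6 WT arrays, and carcinoma 4 is the highest carcinoma array for Clu, Anxa1 and Ctse but the lowest for Cfi.

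A second measure removed the group means before correlating over all 16 arrays. No gene then reached r = 0.8, and the first 2 were Esr1 (0.78) and Pcsk6 (0.77), whose medians were under 100 in each group. With 95286_at in place of 161294_f_at, 0 of the 8 highest stayed among the 8 highest, and no likeness is read from it. Another measure, added after the values had been seen, took only the 10 tumour arrays, again without group means, and kept the lower of the r values with either Clu probe set. By it, 66 of 7304 genes (0.904%) reached 0.8, with a median of 0.02.

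The highest by that measure was Lama3, the alpha 3 chain of laminin-332, a basement membrane protein of epithelia, with r = 0.93 on 161294_f_at and 0.98 on 95286_at. Its signal was 531.7, 490.2, 370.0, 1217 and 986.4 on carcinoma arrays 1 to 5. On adenoma arrays 1 to 5 it was 717.1, 617.4, 784.2, 731.8 and 795.1, and in WT it ran from 32.3 to 314.5. As for Clu, carcinoma 1, 2 and 3 lay below the adenoma range and carcinoma 4 and 5 above it.

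Lgals3, galectin-3, a lectin of epithelium and macrophages, was also among the 8, with r = 0.89 on both probe sets. It had a signal of 558.0, 948.1, 725.4, 5427 and 3988 on carcinoma arrays 1 to 5. The adenoma arrays ran from 1112 to 2278 and the WT arrays from 255.4 to 1993, so Lgals3 in adenoma and WT overlapped. Eif2b4, a subunit of a translation initiation factor, and Mrpl58, a mitochondrial ribosome protein, followed Clu in the tumours too, at lower r values of 0.90 and 0.89. The other 4 of the 8, Krt83, Ogfr, Pea15a and Dut, had carcinoma medians of at most 66.0, near the floor. Of these, Pea15a was at 51.7, 32.0, 26.6, 392.4 and 287.9 on carcinoma arrays 1 to 5. Its adenoma arrays ran from 106.5 to 211.5, so carcinoma 4 and 5 lay above them and carcinoma 1, 2 and 3 below.

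**Figure D4:**
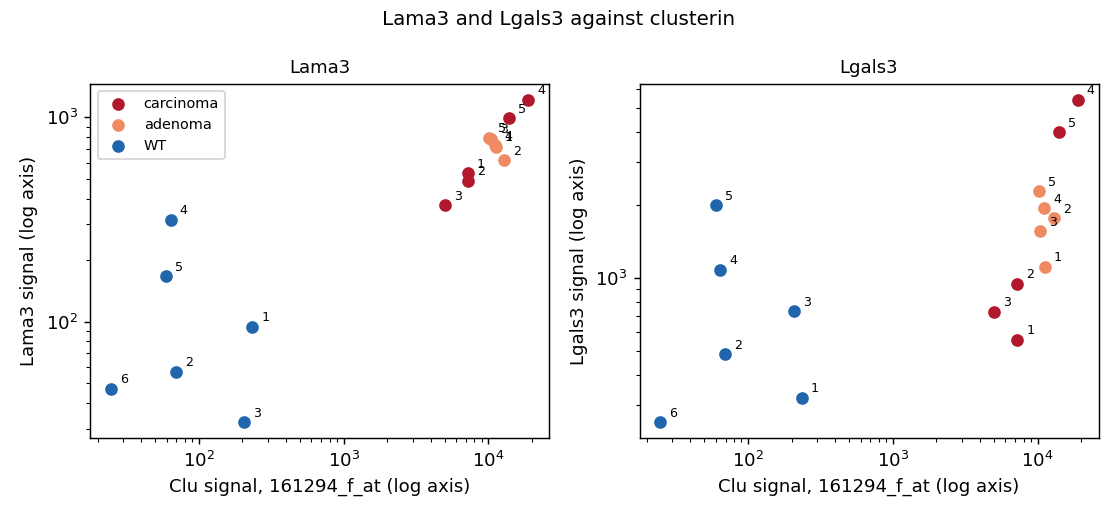
Signal of Lama3 (left) and Lgals3 (right) against that of Clu on 161294_f_at over the 16 arrays (both axes logarithmic), with replicate numbers. Among the tumours both genes were highest on carcinoma 4 and 5.

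Markers of other cell types were set beside this spread. Their part in the result was not tested. The summed signal of 5 genes of follicular dendritic cells was 1488, 1375, 969.1, 2257 and 3023 on carcinoma arrays 1 to 5, and with group means removed it correlated with Clu at 0.81 over the 10 tumour arrays. It consisted mainly of Mfge8, which ran from 790.9 to 2789 in carcinoma, while Cr2, the defining receptor of these cells, was at the floor on all 10 tumour arrays. Summed fibroblast and matrix markers (16 genes, correlation 0.67) ran from 12916 to 22891 in carcinoma, 9697 to 15546 in adenoma and 7896 to 15008 in WT. Summed epithelial markers (15 genes, correlation 0.73) ran from 58523 to 129217 in carcinoma, 75833 to 115703 in adenoma and 105478 to 222171 in WT. For macrophages and neutrophils (15 genes) the correlation was 0.04, with sums of 8276 to 15133 in carcinoma, 5747 to 13246 in adenoma and 5469 to 19837 in WT. The Gapdh ratio had an r of -0.09 with Clu over the same arrays, the spike-in signal 0.54 and the 3' to 5' ratio of beta-actin -0.53.

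The markers were also compared between tumours and WT. In arrays of this kind, fewer cells of a type and less RNA per cell cannot be told apart. The counts below stand beside 4.16% of all genes higher and 4.9% lower in carcinoma, and 4.02% higher and 4.25% lower in adenoma. In lists this short, 1 or 2 called genes are too few to be set apart from those shares. Epithelial markers, of the captured cell type, had 0 of 15 higher and 2 lower in both comparisons, with medians of -0.68 in carcinoma and -0.40 in adenoma, where that of all genes was -0.14. Fabp2, a fatty acid carrier of enterocytes, fell in both, with log2 differences of -3.43 ± 0.63 in carcinoma and -2.16 ± 0.63 in adenoma. Enteroendocrine markers, of hormone cells that can express clusterin, had 0 of 15 genes higher and 4 lower in both comparisons, with sums of 3514 to 4162 in carcinoma, 3110 to 4312 in adenoma and 7587 to 10391 in WT. Smooth muscle markers had 0 higher and 2 of 8 lower in carcinoma, and 1 higher and 2 lower in adenoma, with medians of -0.92 and -0.97. Fibroblast and matrix markers had 3 of 16 higher and 1 lower in carcinoma, among them the collagen chain Col1a1 (log2 1.41 ± 0.23, but -1.08 ± 0.54 on its second probe set), and 1 higher and 0 lower in adenoma, Fn1 (1.23 ± 0.31). Mast cell markers had 3 of 7 higher and 0 lower in both comparisons, with Mcpt2 at 548.3 to 1564 in carcinoma, 1162 to 3766 in adenoma and 20.6 to 137.8 in WT. Endothelial markers had 1 of 10 higher in carcinoma and 2 of 10 higher in adenoma, T, B and plasma cell markers 1 higher and 2 lower of 11 in carcinoma and 1 higher and 4 lower in adenoma, and neurons and glia, macrophages and neutrophils, and follicular dendritic cells had 0 called in either. The part of these cells in the clusterin signal was not tested.

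A set of 8 lists of genes that act with clusterin, or are known to be expressed with it, were then examined. Over the 97 listed genes bright enough to test, 13 rose and 3 fell in carcinoma against WT, and 16 rose and 1 fell in adenoma against WT, by limma's adjusted p of 0.05. Of all genes, 9.05% passed in carcinoma (4.16% higher, 4.9% lower) and 8.28% in adenoma (4.02% higher, 4.25% lower). In carcinoma against adenoma 0 of 97 passed.

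Receptors and adaptors came first. Of 5 tested, 0 rose and 1 fell in each tumour, with medians of -0.44 in carcinoma and -0.43 in adenoma, where the median of all genes was -0.14 in each. Dab1, an intracellular adaptor of the receptors Vldlr and Lrp8, fell by 1.72 ± 0.36 in carcinoma (adjusted p = 0.0046) and by 1.39 ± 0.36 in adenoma (adjusted p = 0.022). Its signal was 53.8 to 284.5 in carcinoma, 157.4 to 225.9 in adenoma and 275.5 to 715.8 in WT. Megalin (Lrp2), an endocytic receptor of clusterin, was at 60.4 to 128.2 in carcinoma, 64.8 to 122.9 in adenoma and 59.3 to 203.8 in WT, and did not pass. Both calls of Dab1 were lost with either control measure as a covariate and when the 4 WT arrays brightest in spike-ins were left out, and the adenoma call also without adenoma 1 or adenoma 5 and with the mean of the gene's probe sets.

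Terminal complement, the target that clusterin restrains, showed 0 of 5 genes called in either tumour, with medians of -0.29 in carcinoma and 0.05 in adenoma. The membrane-bound inhibitor Cd59b differed by -0.69 ± 0.31 in carcinoma and by -0.87 ± 0.31 in adenoma (adjusted p = 0.18 and 0.093). Vitronectin (Vtn), the other soluble inhibitor of the complex, was too dim to test, with medians of 10.7 in carcinoma, 11.7 in adenoma and 13.6 in WT.

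Among 12 apolipoproteins and partners of high-density lipoprotein, 1 fell in carcinoma and 0 were called in adenoma, with medians of -0.21 and 0.16. Apoa1, the main protein of that lipoprotein, fell by 3.54 ± 0.69 in carcinoma (adjusted p = 0.0026) and differed by -1.09 ± 0.69 in adenoma (adjusted p = 0.36). Its signal was 283.6, 1261, 723.7, 1336 and 134.2 on carcinoma arrays 1 to 5. On adenoma arrays 1 to 5 it was 8010, 772.8, 7653, 1376 and 3423, and in WT it ran from 2247 to 15678. The adenoma arrays overlapped both other groups. The carcinoma call was lost once the Gapdh ratio entered the fit, and without the same 4 WT arrays.

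Chaperones were tested as 2 lists. Of 13 other secreted and endoplasmic reticulum chaperones, 0 were called in either tumour, with medians of 0.02 in carcinoma and -0.38 in adenoma. The sum of the 15 listed chaperones with a probe set ran against Clu in the tumours, with an r of -0.79 over the 10 tumour arrays. It was 16309, 18223, 15830, 10807 and 10008 on carcinoma arrays 1 to 5. Such a sum is dominated by its brightest genes. With group means removed, the median r of the single tested genes with Clu over the 16 arrays was 0.02. Haptoglobin (Hp), another extracellular chaperone, was at 632.9 to 1351 in carcinoma, 365.1 to 872.2 in adenoma and 468.4 to 936.5 in WT. Of 13 heat shock response genes, 0 were called, with medians of 0.23 in carcinoma and -0.02 in adenoma. The inducible chaperone Hspa1a varied widely, from 187.9 to 3437 in carcinoma, 232.1 to 659.1 in adenoma and 266.9 to 8499 in WT.

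In the BCL2 family and the Ku proteins, which intracellular clusterin binds or acts on, 0 of 10 were called in carcinoma and 1 rose in adenoma, with medians of -0.27 and 0.11. That 1 was Bcl2l11 (Bim), an activator of apoptosis, which differed by 0.81 ± 0.25 in carcinoma (adjusted p = 0.055) and rose by 1.43 ± 0.25 in adenoma (adjusted p = 0.0013). Its signal was 762.1 to 1436 in carcinoma, 1150 to 2233 in adenoma and 470.5 to 851.6 in WT. A second probe set of Bcl2l11 differed by -0.64 ± 0.34 in carcinoma and -0.20 ± 0.34 in adenoma, so the rise rests on 1 of its probe sets.

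Genes of the fetal and regenerating intestine, the state that clusterin marks after injury, rose with it. Of 19 tested without Clu, 11 rose and 0 fell in carcinoma and 12 rose and 0 fell in adenoma, with medians of 1.38 and 1.70. The 12 include Ly6e, which rose by 1.90 ± 0.44 in adenoma on the probe set used but differed by -1.28 ± 0.42 on its second. With the mean of each gene's probe sets, 12 rose in carcinoma and 10 in adenoma. This list was drawn up with earlier results of these data known, and its direction is no independent evidence. Annexin A1 was higher by 5.37 ± 0.28 in carcinoma and by 5.12 ± 0.28 in adenoma. Annexin A8 (Anxa8) was higher by 3.96 ± 0.34 and 3.78 ± 0.34 in the same order, Anxa3 by 3.93 ± 0.36 and 3.73 ± 0.36, and Il1rn, the antagonist of the interleukin 1 receptor, by 2.30 ± 0.31 and 2.34 ± 0.31. These 4 genes kept their call in both comparisons under all 30 alternatives, and no other listed gene did so in either. The signal of Il1rn was 206.4 to 432.6 in carcinoma, 266.2 to 457.4 in adenoma and 23.0 to 127.5 in WT.

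The summed signal of this list was 75627, 66702, 55345, 123561 and 129111 on carcinoma arrays 1 to 5, 71700 to 130823 in adenoma and 17402 to 69131 in WT, so carcinoma and WT overlapped. With group means removed it correlated with Clu at 0.82 over the 10 tumour arrays. A sum is dominated by its brightest genes. The median r of the single tested genes with Clu, over all 16 arrays and also with group means removed, was 0.06. With array medians aligned, which moves the median of all genes to 0.15 in carcinoma and 0.12 in adenoma, 13 and 15 of the 19 rose. Fitting the Gapdh ratio as a covariate left 5 in each.

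The last list held the coactivators Yap1 and Wwtr1, the TEAD transcription factors they bind, and targets of that pathway, which is tied to the regenerating state. Of 20 tested, 2 rose and 1 fell in carcinoma and 3 rose and 0 fell in adenoma, with medians of 0.04 and 0.18. The coactivator Wwtr1 (TAZ) was higher by 1.58 ± 0.36 in carcinoma and 1.46 ± 0.36 in adenoma (adjusted p = 0.0086 and 0.017), and tissue factor (F3) by 1.62 ± 0.30 and 1.16 ± 0.30 (adjusted p = 0.0019 and 0.024). Igfbp3, a binding protein of insulin-like growth factors, rose by 1.10 ± 0.30 in adenoma alone by this threshold (0.47 ± 0.30 in carcinoma), but its second probe set differed by -0.12 ± 0.28 in adenoma, and the growth factor Tgfb2 passed in carcinoma alone, where it fell (adjusted p = 0.020, against 0.079 in adenoma). The tumours were not shown to differ in either gene. With the 4 WT arrays brightest in spike-ins left out 0 of the 20 passed in each comparison. Without adenoma 3 or adenoma 5 the adenoma count was 1, and without WT 6 it was 5. The sum of the 23 listed genes with a probe set ran against Clu in the tumours. With group means removed, its r with Clu over the tumour arrays was -0.65. This sum was 9041, 9709, 9609, 7276 and 9106 on carcinoma arrays 1 to 5, lowest where Clu was highest. A sum is dominated by its brightest genes. The median r of the single tested genes with Clu, over all arrays with group means removed, was 0.06.

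**Figure D5:**
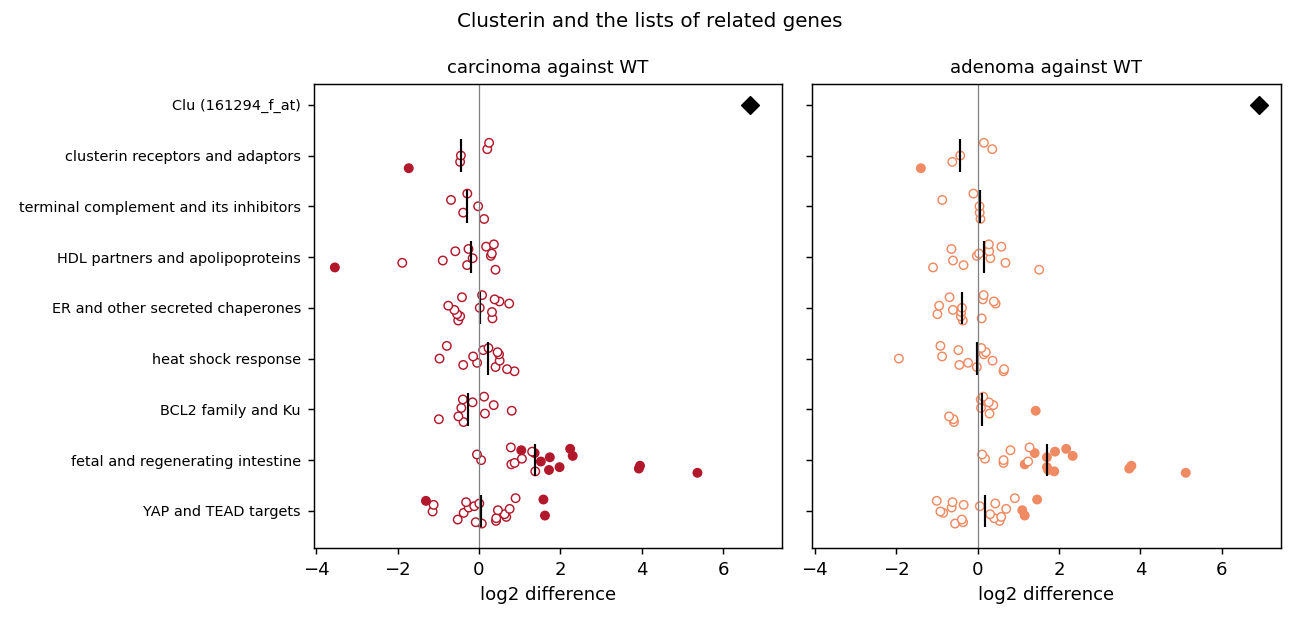
Log2 difference of Clu (diamond) and of the tested members of 8 related lists (circles, filled where the limma adjusted p was under 0.05) in carcinoma against WT (left) and adenoma against WT (right), with the median of each list as a bar. The fetal and regenerating intestine list has medians of 1.38 and 1.70. No listed gene reaches the value of Clu on 161294_f_at, 6.66 and 6.92. On 95286_at the differences of Clu were 3.93 and 4.09, below those of Anxa1, 5.37 and 5.12.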

How the data were processed

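Per the labels, laser-captured ileal epithelial cells were profiled on 16 Affymetrix MG_U74Av2 arrays. The authors deposited probe set intensities on a linear scale. Nothing in the labels or headers names the software behind them. The mean of each array, trimmed by 2% at each end, was 500.3 to 500.4, so arrays were taken as scaled and were not normalized again. Values under the 25th percentile (46.9, or 5.55 as log2) were raised to it before taking log2. The 66 control probe sets were left out. A gene was represented by its probe set of highest mean and tested if 5 or more of the 16 arrays exceeded the floor. A single limma 3.58.1 model (R 4.3.3) held all 3 groups, with 13 residual degrees of freedom, with Benjamini-Hochberg adjustment over 7455 genes, or over 10563 probe sets for each Clu probe set. Tests were two-sided, intervals cover 95%, and the number of arrays limits the precision. The fit was tested on simulated data.

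Names came from the platform annotation, updated through Entrez identifiers (GRCm38.p6): 10833 probe sets had 1 symbol, 396 several and 1193 none. Named genes were the 8 most like Clu per measure, and per list up to 4 past the threshold with the smallest p, or the 2 of largest difference where none passed. Members, lists, groups and tests were chosen with earlier results of these data known. Alternatives were 2 scalings, other floors and filters, the mean of probe sets, the other Clu probe set, ranks, a replicate block, array weights, fits of 2 groups, 2 covariates, and arrays left out. Fits with no floor and 3 further measures of likeness were added after seeing the data. Figures used matplotlib 3.10.9 in Python 3.11.15.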

Additional observations from a re-analysis of the deposited data

How the results depend on the processing

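The difference of Clu between carcinoma and adenoma stayed negative and short of the threshold under all 33 alternatives. Many of these could not move the value. It stayed at -0.26 with other floors and filters, with WT arrays left out, with a replicate block and in the fit of 2 groups. Those alternatives are no check of its sign. On the log2 scale it ran from -0.52 to -0.04, with the lowest and the highest when 1 array was left out. By percentile rank within each array it was -0.43 percentage points. Its differences from WT stayed positive in all alternatives. For carcinoma minus WT the value was 5.30 with the mean of the probe sets and 3.93 on the other Clu probe set, and for adenoma minus WT 5.50 and 4.09, since 95286_at gave the smaller difference. Fitting the Gapdh ratio made adenoma minus WT 7.77. Leaving out 1 array gave 6.40 to 6.93 for carcinoma and 6.73 to 7.19 for adenoma.

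Of 97 listed genes, the number called in carcinoma against WT was 6 when the Gapdh ratio was a covariate and 8 when the 4 WT arrays brightest in spike-ins were left out, in place of 16. In adenoma against WT it was 5 and 10, in place of 17. The fit without 4 arrays has fewer samples. Leaving out 1 array gave 12 to 18 and 12 to 19. The other alternatives kept these counts within 1.5 times. In carcinoma against adenoma the count was 0 in every alternative, where 185 of 7455 genes had an unadjusted limma p under 0.05.

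Named genes that changed sign were ones not called in that comparison. In carcinoma against adenoma, Dab1 ran from -0.58 to 0.016 with 1 array left out (highest without carcinoma 3), Dab2 from -0.094 (without carcinoma 5) to 0.58, and Hc from -0.27 to 0.13 (without adenoma 4). Hc was also 0.077 with the floor at the 10th percentile, 0.063 with array weights and 0.24 with no floor. In adenoma against WT, Hc was 0.013 after quantile normalization, 0.27 with the spike-in covariate and -0.42 to 0.097 with 1 array left out, and Apoa1 was 1.24 with the Gapdh covariate. In carcinoma against WT, Bag3 was -0.31 with the spike-in covariate and -0.15 without the 4 WT arrays, and Bak1 0.077 with the Gapdh covariate. The cause was not tested.

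Replicate numbers were not taken as pairs. Same-numbered deviations correlated between -0.27 and 0.40, and those of different numbers between -0.44 and 0.47. Between carcinoma and WT the ranges were -0.02 to 0.40 for the same number and -0.34 to 0.31 for different numbers. With 5 same-numbered pairs in each comparison of groups, these ranges cannot exclude a pairing. With the number as a replicate block Clu was -0.26 for carcinoma minus adenoma, 6.46 for carcinoma minus WT and 6.73 for adenoma minus WT, so no call of Clu changed, and 5 genes of the YAP and TEAD list were called in adenoma, in place of 3.

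As deposited, 310 genes were higher and 365 lower in carcinoma against WT, and with array medians aligned 587 and 208. In adenoma these were 300 and 317, and 465 and 147. Signals near the floor limit what can be said of dim genes such as Vtn and Lrp2.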
